A study of Homo sapiens with 6 samples.

Results

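Translation initiation factors are the proteins that bring the small ribosomal subunit, the initiator tRNA and an mRNA together. eIF2 delivers the initiator tRNA, eIF3 holds the assembly together, the eIF4 factors bind the mRNA cap and unwind the leader, and eIF1, eIF1A, eIF5 and eIF5B select the start codon and join the large subunit. The pathway has 2 well known brakes: the eIF2 kinases (EIF2AK genes), which phosphorylate eIF2 under stress and thereby block its exchange factor eIF2B, and the eIF4E-binding proteins (EIF4EBP genes), which mTOR releases from the cap-binding protein eIF4E. The members described here are the protein-coding genes whose symbol begins with EIF and a digit from 1 to 6, each read from the brightest probe set (mean of all 6 arrays) that names the gene alone. They number 49 of the 19775 genes on the array. EIF3CL, EIF4A1 and EIF4EBP3 (3 genes) have only probe sets shared with other genes and were not analysed, and 4 more (EIF2S3B, EIF4E1B, EIF4G3 and EIF5AL1) were not analysed here. EIF1AY, on the Y chromosome, is counted among the members, but its values are not given.

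The samples were 6 arrays of ARPE-19, an established human retinal pigment epithelium cell line grown with 10% serum. DMSO solvent alone, at 0.1%, was given to 3 of them, and SRPIN803 at 10 µM to the other 3, each for 4 h. SRPIN803 blocks SRPK1, which phosphorylates SR splicing factors, and also CK2, a broadly acting kinase. The comparison asks how transcript levels of the initiation machinery differ after a short exposure, and it does not measure protein, phosphorylation or translation itself. Nothing in the labels tells whether replicates came from separate cultures. The p-values therefore reflect only how far these 6 samples spread, which may be technical. With bulk RNA, fewer cells with a transcript and less of it per cell cannot be told apart.

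Levels are log2 values per array, and changes are log2 differences, SRPIN803 minus DMSO, with standard errors and adjusted p-values from limma (Benjamini-Hochberg over all genes), a gene being called at an adjusted p under 0.05. Array medians lay between 5.25 and 5.28, and arrays of a group correlated at 0.9957 to 0.9977, against 0.9940 to 0.9961 for arrays of different groups. The median level over all genes was 6.53. Of 14 retinal pigment epithelium markers 6 lay above it, among them KRT18, KRT8, OTX2 and MITF, while the visual cycle genes RPE65 (2.33) and LRAT (2.83) and the pigment gene TYRP1 (3.21) were in the dim range. The mean of those 14 markers was 6.75 to 6.80 in DMSO and 6.80 to 6.91 in SRPIN803, with MITF the 1 gene of them called (0.35 ± 0.07, limma's adjusted p = 0.0312), and its part in the results below was not tested. None of the 6 endothelial or 5 leukocyte markers lay above the median level, nor was any called. Of 5 photoreceptor markers 1 lay above it, and of 6 fibroblast markers 1 (COL1A1).

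Most initiation factor transcripts were measured close to their DMSO level. Of the 49 genes 2 fell (4.08%) and 0 rose past the threshold, beside 2.37% of all genes called lower and 3.46% called higher (5.84% in either direction). Among genes at or above the 75th percentile level 4.13% were called lower and 3.20% higher, and 1 of the 43 members there, EIF3J, was called. The genes that fell were EIF4ENIF1, the eIF4E transporter 4E-T, and EIF3J, a loosely bound eIF3 subunit. The median log2 change over the 49 was -0.0035, beside 0.02 over all genes, with 26 below 0 and 23 above. At an unadjusted p under 0.05 the counts were 7 lower and 1 higher of the 49, beside 1522 lower and 2332 higher of all 19775 genes. At or above the 75th percentile level they were 6 lower and 1 higher of 43 members, beside 550 lower and 621 higher of 4944 genes.

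The spread between arrays sets how large a difference in these probe sets could be. For the brightest probe set of each of the 49 genes the 95% confidence interval lay inside a 1.5-fold change in either direction, and for 36 it lay inside 1.2-fold. Over all genes these shares were 94.5% and 40.6%, and over the 4944 genes at or above the 75th percentile level, where 43 of the members lie, 96.2% and 59.1%. These intervals describe the probe sets. EIF3C and EIF4A2, read from dim probe sets, are not bounded as genes by them. Intervals of some probe sets that were not the brightest went past 1.5-fold, those of EIF4G1, EIF3J and EIF3M among them.

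**Figure D1:**
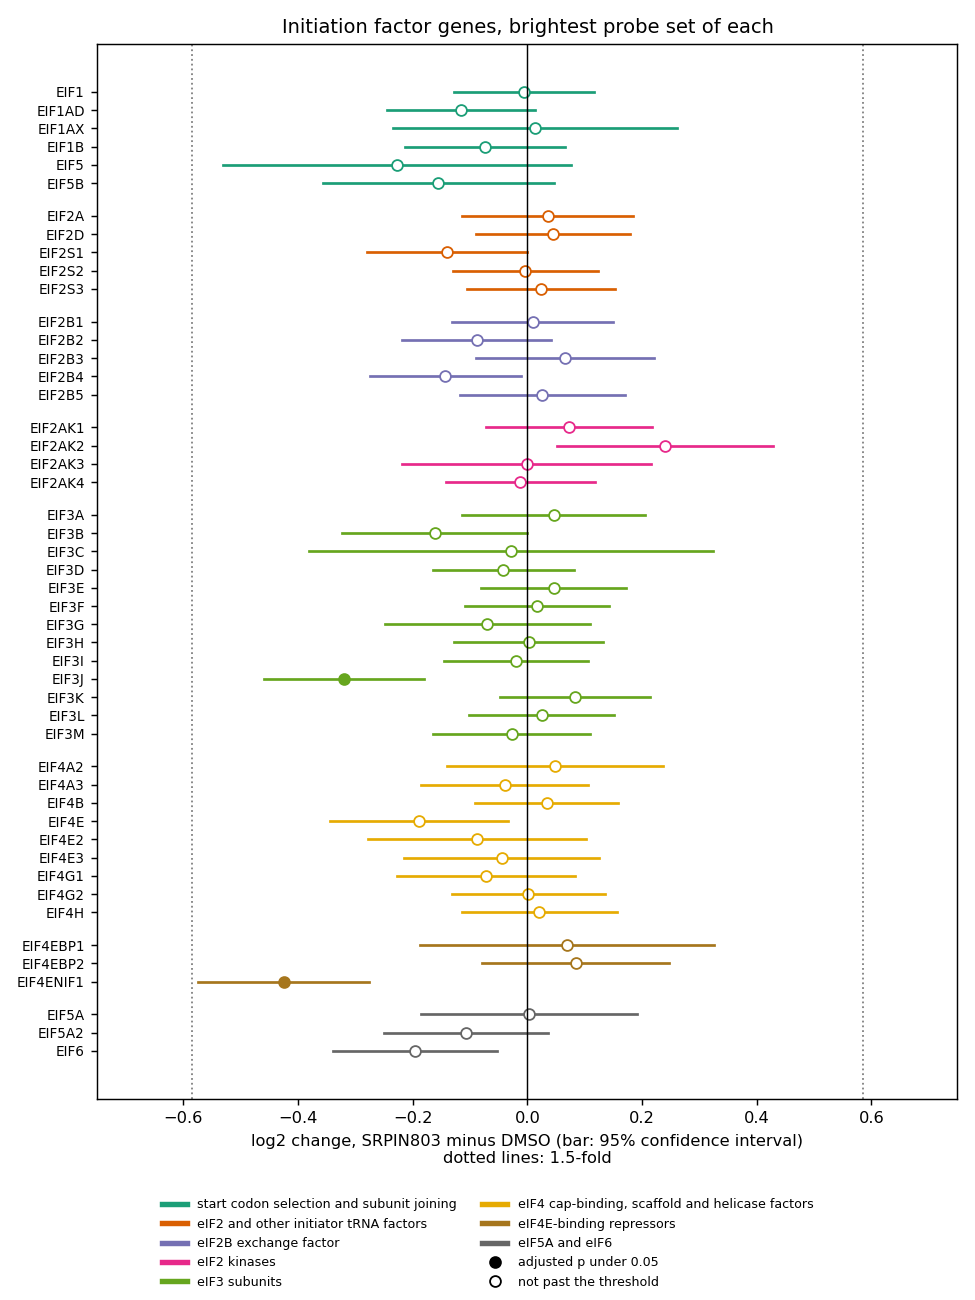
Log2 change after SRPIN803 of the initiation factor genes other than EIF1AY, grouped by role, with 95% confidence intervals as bars and dotted lines at 1.5-fold. Only EIF3J and EIF4ENIF1 have filled points, for an adjusted p under 0.05, and no interval reaches a dotted line.

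The 3 SRPIN803 arrays lay all below or all above the 3 DMSO arrays in 11 and 4 of the members. Among all genes 10.4% lay lower and 15.2% higher in this way, and among genes at or above the 75th percentile level 17.1% and 20.4%, where 9 and 4 of 43 members did. The members without overlap and lower, beside the called genes, were EIF6, EIF4E, EIF3B, EIF2B4, EIF2S1, EIF1AD, EIF5A2, EIF2B2 and EIF3D. None of these 9 passed the threshold. The 4 without overlap and higher included EIF2AK2, EIF3K and EIF4B, and none of the 4 was called.

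**Figure D2:**
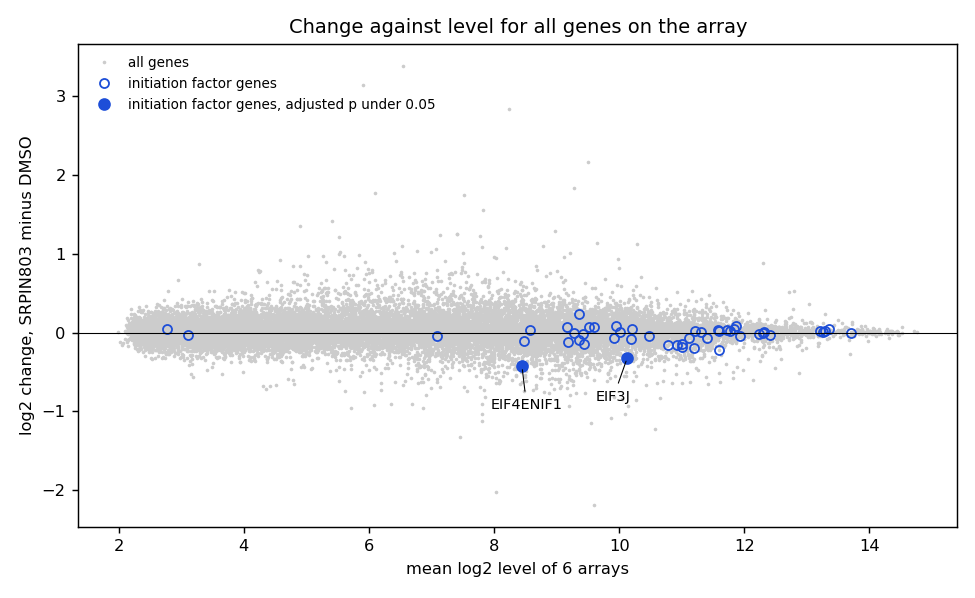
Log2 change (vertical axis) against mean log2 level of the 6 arrays (horizontal axis), with all genes in grey and initiation factor genes in blue. The initiation factors sit mostly in the bright part of the range and near 0, with EIF4ENIF1 and EIF3J filled as the called genes.

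The eIF4E-binding repressors compete with the scaffold eIF4G for the cap-binding protein. EIF4ENIF1, which carries eIF4E into the nucleus and to processing bodies and represses bound mRNAs, was at 8.71, 8.62 and 8.64 in DMSO and at 8.26, 8.29 and 8.15 in SRPIN803. The highest SRPIN803 value was below the lowest DMSO value. It fell 1.34-fold (1.21 to 1.49, 95% confidence interval), a log2 change of -0.43 ± 0.06 with limma's adjusted p = 0.0120. The call was lost without DMSO replicate 1 or DMSO replicate 3, with adjusted p up to 0.0584. It was also lost with the mean of its probe sets (-0.23, adjusted p = 0.0763), since the other probe set, at a level of 2.71, was at -0.03 ± 0.07.

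The mTOR-controlled repressor genes gave no such difference. EIF4EBP1 was at 9.67, 9.32 and 9.45 in DMSO and at 9.67, 9.60 and 9.38 in SRPIN803, a change of 0.07 ± 0.11 (adjusted p = 0.803). The arrays of the groups were interleaved, and DMSO replicate 1 and SRPIN803 replicate 1 were equally high. EIF4EBP2 was at 9.89, 9.93 and 9.93 in DMSO and at 10.05, 9.87 and 10.07 in SRPIN803, a change of 0.08 ± 0.07 (adjusted p = 0.592). Its interval ran from -0.08 to 0.25, and all 5 of its probe sets lay between -0.05 and 0.14.

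eIF3 is the largest initiation factor, a ring of subunits on the small ribosomal subunit that keeps the ribosomal subunits apart and bridges to the cap complex. Of 13 subunit genes 1 fell and 0 rose, with a median log2 change of -0.02. The share called lower, 7.69%, rests on that 1 gene, beside 2.37% of all genes called lower and 3.46% higher. EIF3J, whose product binds the decoding centre of the small subunit and comes off easily, was at 10.22, 10.29 and 10.35 in DMSO and at 9.94, 9.96 and 10.00 in SRPIN803. The lowest DMSO array was above the highest SRPIN803 array. EIF3J fell 1.25-fold (1.13 to 1.38), a log2 change of -0.32 ± 0.06 with limma's adjusted p = 0.0254. Leaving out any single array cost EIF3J the call, at log2 changes from -0.35 to -0.29 and adjusted p from 0.0522 to 0.110.

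The other probe set of EIF3J gave a larger fall. It was at 8.64, 8.74 and 8.80 in DMSO and at 8.33, 8.27 and 8.23 in SRPIN803, and again the groups did not overlap. Its change was -0.45 ± 0.07, with limma's adjusted p = 0.0255 over all 54613 probe sets, where 1.03% were called lower and 1.19% higher. The brightest probe set missed that wider adjustment (adjusted p = 0.0603).

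EIF3J shares its promoter region with a noncoding neighbour, EIF3J-DT, a divergent transcript on the other strand. RefSeq's promoter table (GRCh38.p14) puts the EIF3J start at base 44537147 of chromosome 15 on the plus strand and the nearest EIF3J-DT start at base 44536923 on the minus strand, 224 bases away. The stretch before the EIF3J start, chr15:44536897-44537146 on the plus strand, is shown because the transcripts leaving it in opposite directions moved in opposite directions. Capitals mark the 223 bases between the start sites.
EIF3J: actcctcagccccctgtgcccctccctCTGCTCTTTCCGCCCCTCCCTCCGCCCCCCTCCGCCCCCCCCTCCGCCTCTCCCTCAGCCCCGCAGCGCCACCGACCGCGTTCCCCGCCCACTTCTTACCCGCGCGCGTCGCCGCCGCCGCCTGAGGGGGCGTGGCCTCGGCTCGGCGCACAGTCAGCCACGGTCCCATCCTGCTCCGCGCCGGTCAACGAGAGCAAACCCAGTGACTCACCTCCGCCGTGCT

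EIF3J-DT was at 7.01, 7.21 and 7.06 in DMSO and at 7.57, 7.55 and 7.60 in SRPIN803. All SRPIN803 arrays were higher, while EIF3J was lower on the same arrays. EIF3J-DT rose 1.40-fold (1.25 to 1.56), a log2 change of 0.48 ± 0.07 with limma's adjusted p = 0.00945. The call was lost without DMSO replicate 3 (adjusted p = 0.0534). EIF3J-DT, like the 3 other noncoding genes beside members on the array, is no member and was looked at after its value was seen.

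**Figure D3:**
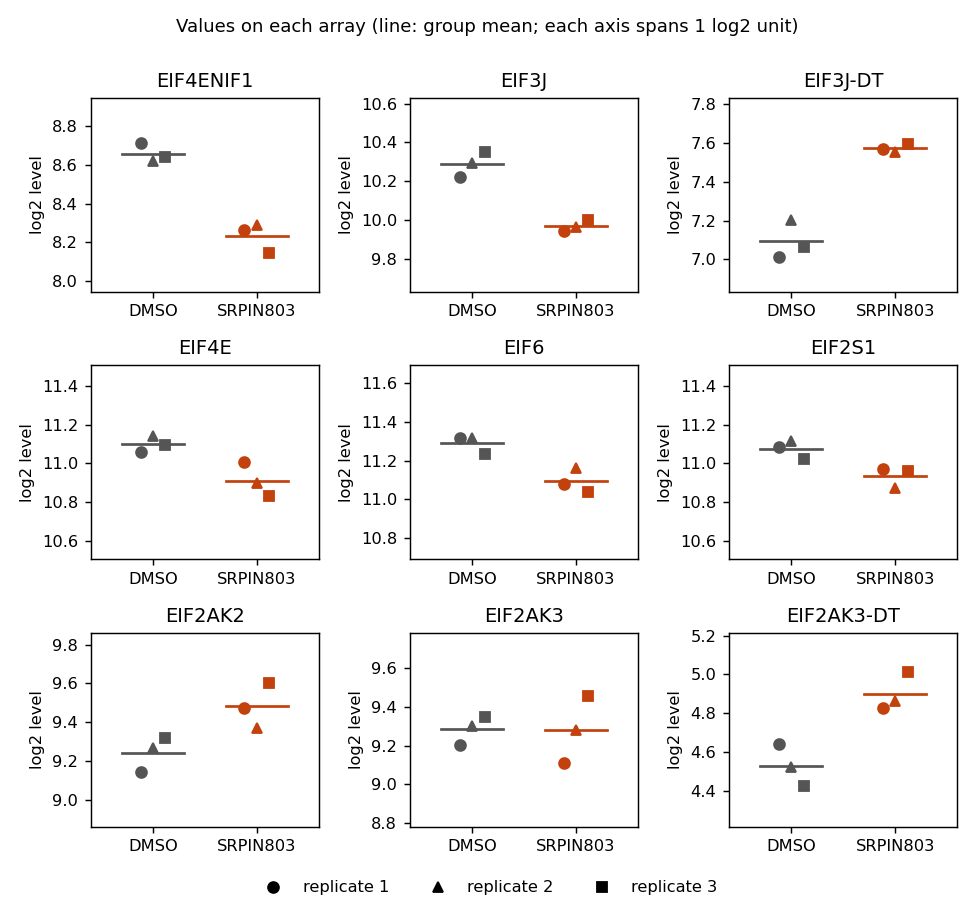
Log2 levels on each array for 7 initiation factor genes and the noncoding neighbours EIF3J-DT and EIF2AK3-DT, with points for replicates 1 to 3, lines for group means and 1 log2 unit on each vertical axis. EIF4ENIF1 and EIF3J are lower in SRPIN803 and EIF3J-DT and EIF2AK3-DT higher, each without overlap, while the EIF2AK3 groups overlap.

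Other eIF3 subunits differed less. EIF3B, a scaffold subunit, was at 11.01, 10.90 and 11.12 in DMSO and at 10.83, 10.88 and 10.84 in SRPIN803, a change of -0.16 ± 0.07 (adjusted p = 0.256). The groups came close but did not overlap. Under other processing choices the change of EIF3B ran from -0.18 to -0.07 and was not called (adjusted p of 0.0927 to 0.668). EIF3E, a subunit in contact with eIF4G, was at 13.31, 13.36 and 13.32 in DMSO and at 13.39, 13.35 and 13.39 in SRPIN803, a change of 0.05 ± 0.05 (adjusted p = 0.726). In their brightest probe sets EIF3D, EIF3F, EIF3G, EIF3H, EIF3I, EIF3K, EIF3L and EIF3M had changes of -0.07 to 0.08, none called. Other choices of probe set took EIF3F up to 0.17 and EIF3M down to -0.19, neither called. EIF3C was read from a probe set at a level of 3.11, in the dim range, with an interval of -0.38 to 0.32, so its change is poorly bounded.

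Probe sets of a gene did not always move alike. EIF3A, the largest eIF3 subunit, was at 0.05 ± 0.07 in its brightest probe set and at -0.21 ± 0.08 and -0.19 ± 0.07 in the others, both without overlap between groups and neither called (adjusted p = 0.266 and 0.215 over all probe sets). EIF3M was at -0.03 and -0.04 in its bright probe sets and at -0.42 ± 0.08 in a dim one, at a level of 3.30. That dim probe set was called (adjusted p = 0.0426 over all probe sets), but in no fit that left out an array (adjusted p of 0.0812 to 0.157). EIF3M was at -0.19, not called, with the mean of all 5 of its probe sets, which are not all listed here. Of all 125 probe sets of the members 3 were called lower and 0 higher, beside 1.03% lower and 1.19% higher of all 54613 probe sets. Of the 76 that were not the brightest of their gene, 45 were below 0 and 31 above. The same split over all probe sets is not given here, so no lean of the family is read from it. The EIF3A and EIF3M probe sets were singled out after their values were seen.

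**Figure D4:**
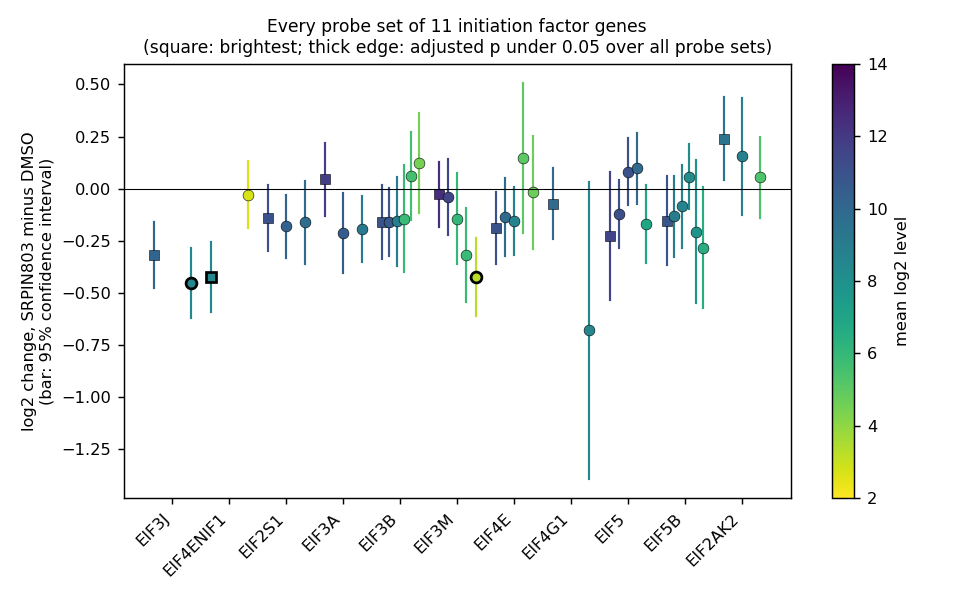
Log2 change of every probe set of 11 initiation factor genes, squares for the brightest of each gene, colour for the mean log2 level, bars for 95% confidence intervals. The thick edges mark the 3 called probe sets, 1 each of EIF3J, EIF4ENIF1 and EIF3M, and the widest interval belongs to a probe set of EIF4G1.

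The eIF4 group binds the cap, bridges to eIF3 and unwinds the leader. Of its 9 genes 0 passed the threshold, with a median log2 change of -0.04. EIF4E, the cap-binding protein that limits initiation, was at 11.06, 11.14 and 11.10 in DMSO and at 11.01, 10.90 and 10.83 in SRPIN803. All SRPIN803 arrays were lower, by a log2 change of -0.19 ± 0.07 (adjusted p = 0.164), with an interval of -0.34 to -0.03. With the mean of its probe sets it was at -0.07 (adjusted p = 0.655), and with trend and robust variance it passed the threshold (adjusted p = 0.0387). Its other probe sets at levels of 8.65 and 9.84 were at -0.15 ± 0.07 and -0.14 ± 0.08, and those at 5.02 and 4.71 at 0.15 ± 0.16 and -0.02 ± 0.12.

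EIF4G1, the scaffold of the cap complex, was at 9.91, 9.95 and 10.00 in DMSO and at 9.78, 9.95 and 9.92 in SRPIN803, a change of -0.07 ± 0.07 (adjusted p = 0.638). Its groups overlapped. Its other probe set was at 8.86, 8.76 and 8.76 in DMSO and at 8.61, 7.28 and 8.45 in SRPIN803, where SRPIN803 replicate 2 stood far below the rest. That probe set was at -0.68 ± 0.31, and at -0.26 ± 0.09 without SRPIN803 replicate 2, not called either way (adjusted p = 0.345 and 0.221 over all probe sets). EIF4E2, a cap-binding relative that represses mRNAs, was at -0.09 ± 0.08 (adjusted p = 0.637). EIF4A2, a helicase gene, was read from a probe set at a level of 2.78 and was at 0.05 ± 0.08.

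The promoter of EIF4E is a textbook target of MYC through the E-box CACGTG, a motif read the same on both strands. The bases before its start site in RefSeq's table, chr4:98929134-98929383 on the minus strand of GRCh38.p14, are shown because they hold that motif at 2 places, in capitals.
EIF4E: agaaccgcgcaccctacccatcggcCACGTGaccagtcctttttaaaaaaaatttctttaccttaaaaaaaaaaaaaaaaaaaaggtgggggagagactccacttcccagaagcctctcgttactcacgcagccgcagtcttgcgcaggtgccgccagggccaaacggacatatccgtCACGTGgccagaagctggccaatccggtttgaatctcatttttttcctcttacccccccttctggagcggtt

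Promoter windows of 300 bases (250 before the start and 50 from it) were found for 41 members, in 55 windows. CACGTG stood in 11 of the 55 (20.0%), in 7.26% of all 35116 windows and in 8.34% of the 22199 windows of protein-coding genes. The 11 genes with it had a median log2 change of 0.02 (5 below 0, range -0.19 to 0.24), and the 30 without it -0.02 (19 below 0, range -0.43 to 0.11). The median was near 0 in genes with the motif and in genes without it. The ETS motif GGAAGT stood in 30.9% of the members' windows and 23.9% of coding windows, CTTTCC in 25.5% and 26.4%, CTTTTC in 20.0% and 19.5%, and the ATF4 element TGATGNAA in 1.82% and 2.69%, each on either strand. The windows of EIF4ENIF1 and EIF3J held none of these 5 motifs except CTTTCC in EIF3J. A match is a string of letters and no evidence of binding.

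eIF2 kinases stop general initiation under different stresses. Of the 4 genes 0 passed the threshold. EIF2AK2, the double-stranded RNA sensor PKR, was at 9.14, 9.27 and 9.32 in DMSO and at 9.47, 9.37 and 9.60 in SRPIN803. All SRPIN803 arrays were higher, by a log2 change of 0.24 ± 0.08 (adjusted p = 0.149). That was the largest value above 0 among the members' brightest probe sets. The other probe sets of EIF2AK2 were at 0.15 ± 0.12 and 0.05 ± 0.08.

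PKR is also an interferon-induced gene, and its promoter is known for an interferon response element. RefSeq's table gives chr2:37156971-37157080 on the minus strand of GRCh38.p14 for the 100 bases before its start and the 10 from it. They are shown with that element in capitals, searched as GAAA, any pair of bases and GAAACT on both strands, a motif chosen after the data were seen. That motif stood in 1 of the members' 55 windows and in 0.288% of coding windows.
EIF2AK2: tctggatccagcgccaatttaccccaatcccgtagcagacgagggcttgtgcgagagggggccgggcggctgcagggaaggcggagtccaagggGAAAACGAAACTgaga

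In their brightest probe sets the 3 other kinase genes were near 0. EIF2AK1, the haem-regulated kinase, was at 9.54, 9.52 and 9.61 in DMSO and at 9.58, 9.61 and 9.70 in SRPIN803, a change of 0.07 ± 0.06 (adjusted p = 0.605). EIF2AK3, the endoplasmic reticulum kinase PERK, was at 9.20, 9.30 and 9.35 in DMSO and at 9.11, 9.28 and 9.45 in SRPIN803, a change of -0.0013 ± 0.09 (adjusted p = 0.996). The SRPIN803 arrays of EIF2AK3 reached both below and above the DMSO arrays. With the mean of its 2 probe sets EIF2AK3 was at 0.14, not called. Its other probe set was at 0.28, the largest value among the members' 125 probe sets, and was not called either. EIF2AK4, the amino acid sensor GCN2, was at 9.39, 9.42 and 9.48 in DMSO and at 9.40, 9.42 and 9.42 in SRPIN803, a change of -0.01 ± 0.06 (adjusted p = 0.938).

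EIF2AK3 too has a divergent noncoding neighbour, EIF2AK3-DT, whose start lies 365 bases from the EIF2AK3 start of the promoter table. EIF2AK3-DT was at 4.64, 4.52 and 4.43 in DMSO and at 4.83, 4.87 and 5.01 in SRPIN803, below the median level on every array. It rose 1.29-fold (1.14 to 1.47), with limma's adjusted p = 0.0401. It was not called once an array was left out, whichever it was (adjusted p of 0.0582 to 0.147). The antisense genes EIF2AK3-AS1 and EIF1B-AS1 were at 0.04 ± 0.12 and 0.10 ± 0.17, with overlapping groups.

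eIF2 itself carries the initiator tRNA with GTP. Of its 3 subunit genes and the related EIF2A and EIF2D 0 passed the threshold. EIF2S1, the subunit that the kinases phosphorylate, was at 11.09, 11.12 and 11.02 in DMSO and at 10.97, 10.87 and 10.96 in SRPIN803, a change of -0.14 ± 0.06 (adjusted p = 0.255). Its groups did not overlap, and its other probe sets were at -0.18 ± 0.07 and -0.16 ± 0.09. In their brightest probe sets EIF2S2, EIF2S3, EIF2A and EIF2D lay between -0.0035 and 0.04, EIF2D being at 0.04 ± 0.06 (adjusted p = 0.750). Other choices of probe set took EIF2S2 down to -0.14 and EIF2S3 up to 0.07, neither called.

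eIF2B recharges eIF2 with GTP and is the target of the kinases' block. Of its 5 genes 0 passed the threshold, with a median log2 change of 0.0088. EIF2B4 was at 9.52, 9.48 and 9.51 in DMSO and at 9.33, 9.42 and 9.34 in SRPIN803, a change of -0.14 ± 0.06 (adjusted p = 0.215). Its other probe set was at -0.15 ± 0.07 and also without overlap. EIF2B2 was at -0.09 ± 0.06 (adjusted p = 0.461), and the 3 others lay between 0.0088 and 0.07 in their brightest probe sets. Another choice of probe set took EIF2B5 up to 0.11, not called.

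Factors of start codon choice and subunit joining (7 genes) gave 0 calls and a median log2 change of -0.07. EIF1, which guards against wrong start codons, was at 13.70, 13.71 and 13.71 in DMSO and at 13.71, 13.71 and 13.69 in SRPIN803. Its groups overlapped, with a change of -0.0059 ± 0.053 (adjusted p = 0.970). Other bright probe sets of EIF1, at levels of 12.60, 12.50 and 12.52, were each at -0.11, none called. The only probe set of EIF1 above 0, at a level of 8.54, was at 0.03 ± 0.07. EIF1AD, a relative of eIF1A, was at -0.12 ± 0.06 (adjusted p = 0.313).

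EIF5, EIF5B and EIF1AX, named after their values were seen, had their lowest value on the same treated array, SRPIN803 replicate 2. That array was the lowest for 9 of the 49 members and for 13.9% of all genes. DMSO replicate 1 and SRPIN803 replicate 1 were each the lowest for 12 members, beside 17.6% and 18.3% of all genes. EIF5, the GTPase activator of eIF2, was at 11.74, 11.75 and 11.66 in DMSO and at 11.71, 11.17 and 11.59 in SRPIN803. SRPIN803 replicate 2 stood below the rest, and the change of -0.23 ± 0.13 became -0.07 ± 0.07 without it. EIF5B, which joins the subunits, went from -0.16 ± 0.09 to -0.07 ± 0.07 in the same way. It was at 0.06 when read from a probe set without the _x_at or _s_at suffix. EIF1AX, which scans with eIF1, went from 0.01 ± 0.11 to 0.13 ± 0.07. None of them was called with or without that array. The 4 other probe sets of EIF5 lay between -0.17 and 0.10.

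eIF5A helps ribosomes past difficult stretches and carries the modified residue hypusine, and eIF6 keeps free large subunits from joining. EIF6 was at 11.32, 11.32 and 11.23 in DMSO and at 11.08, 11.16 and 11.04 in SRPIN803, a change of -0.20 ± 0.06 (adjusted p = 0.121). Its groups did not overlap, and it passed the threshold when only genes at or above the median level were tested (adjusted p = 0.0328). EIF5A was at 11.29, 11.20 and 11.45 in DMSO and at 11.23, 11.37 and 11.33 in SRPIN803, a change of 0.0028 ± 0.081 (adjusted p = 0.990). EIF5A2, its second gene, was at -0.11 ± 0.06 (adjusted p = 0.411).

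Other genes of the pathway were taken from lists written from textbook knowledge. Among 27 cap-binding regulators and mTOR pathway genes 2 rose (7.41%) and 0 fell, with a median of -0.02. Of all genes 3.46% were called higher and 2.37% lower. PAIP2, which inhibits the poly(A)-binding protein, was at 10.94, 11.08 and 11.04 in DMSO and at 11.38, 11.35 and 11.53 in SRPIN803. It rose 1.32-fold (1.18 to 1.48), with limma's adjusted p = 0.0226, with 0.23 ± 0.07 for its other bright probe set, which was not called (adjusted p = 0.164 over all probe sets). TSC1, a brake on mTOR, was at 8.84, 8.94 and 8.92 in DMSO and at 9.23, 9.29 and 9.33 in SRPIN803. It rose 1.30-fold (1.18 to 1.44), with limma's adjusted p = 0.0154. The groups of both genes did not overlap. PAIP2 lost the call without any 1 DMSO replicate or SRPIN803 replicate 3, and was not called with the mean of its probe sets (adjusted p = 0.107). TSC1 lost it without DMSO replicate 1, DMSO replicate 3 or SRPIN803 replicate 3.

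In the other lists 0 genes were called. Among 14 partners of eIF2 phosphorylation the smallest p belonged to DDIT3, the stress transcription factor CHOP, at 0.20 ± 0.06 (adjusted p = 0.103). Among 14 other initiation helpers it belonged to ABCE1, a ribosome recycling factor, at -0.22 ± 0.06 (adjusted p = 0.0913). Among 13 elongation, termination and hypusination genes it belonged to ETF1, the termination factor eRF1, at -0.23 ± 0.06 (adjusted p = 0.0528). The medians of these lists were 0.02, 0.02 and 0.03.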

How the data were processed

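The deposited log2 values, 1 per probe set and array, were made by the authors, who used RMA per the submitters' processing notes. This method subtracts background, normalizes between arrays and summarises probes. For the software and settings of RMA, the sources used here give nothing. Ranked within each array, values at the same rank were within 0.14 of each other, as after quantile normalization, which hides a change in total RNA per cell. RMA compresses changes of dim probe sets. Of 54675 probe sets 62 were controls, and 41091 named 1 gene, 1801 several and 11721 none here, by the platform annotation updated through Entrez IDs (0 symbols changed). Groups came from the sample titles.

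Two-sided tests were run with limma (version 3.58.1, R 4.3.3), fitting treatment alone with lmFit and eBayes, which left 4 residual degrees of freedom. Adjustment was by Benjamini-Hochberg over all genes, or over all probe sets where stated. Arrays give no read depth, and 3 per group limit the precision. Promoters and start sites came from RefSeq tables (GRCh38.p14). Members and lists were chosen with earlier results of these data known.

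Named genes were all called members, the eIF2 kinases, 7 other factors (EIF4E, EIF4G1, EIF2S1, EIF5A, EIF6, EIF4EBP1 and EIF4EBP2), the 2 smallest p in each role without a call, the 2 brightest and 2 dimmest members, and in each pathway list the called genes or the smallest p. EIF4A1 was on that list but has only shared probe sets. EIF3A, EIF3B, EIF3M, EIF5, EIF5B, EIF1AX, the noncoding neighbours and the interferon motif were added after values were seen, as were the left-out arrays for EIF3J-DT, EIF2AK3-DT, PAIP2 and TSC1. Alternatives were a replicate block, each array left out, filters on dim genes, other probe sets per gene, 3 normalizations, the variance model, array weights and the threshold. Same-numbered arrays did not deviate together throughout, so the block was an alternative only. Plots used matplotlib 3.10.9 in Python 3.11.15.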

Additional observations from a re-analysis of the deposited data

How the results depend on the processing

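The count of initiation factor genes called lower was 2. It was 1 with a replicate block (EIF4ENIF1), 1 with the mean of all probe sets (EIF3J), and 0 to 1 with 1 array left out. It was 3 among genes at or above the median level (EIF6 besides) and 4 with trend and robust variance (EIF6 and EIF4E besides). The count called higher was 0, with 1 (EIF2AK2) under trend and robust variance. The count of their probe sets called was 3, with 0 under the replicate block, 5 under trend and robust variance, and 0 with any 1 array left out. All genes called were 1154, 689 with the replicate block, 1944 of 9888 at or above the median level, 2036 with trend and robust variance, 1991 at an adjusted p under 0.10, and 324 to 687 with 1 array left out. The members' median stayed between -0.0278 and 0.00053 with 1 array left out. For the pairing, deviations of same-numbered arrays correlated at 0.18, -0.06 and 0.11, so the numbers were not taken to pair the samples. EIF3J missed the threshold with the replicate block (adjusted p = 0.0532), as did EIF2AK3-DT (adjusted p = 0.101).

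Signs of uncalled genes turned for 16 members under other alternatives and for 18 with 1 array left out. EIF2AK3 was at 0.14 with the mean of all probe sets, 0.010 after quantile normalization and 0.0011 with array weights. EIF5A was at -0.0085 with arrays centred, -0.00030 with cyclic loess and -0.018 with array weights. Among the others were EIF5A2 (0.0029, mean of probe sets), EIF3C (0.0014, array weights), and, without _x_at and _s_at probe sets, EIF1 (0.030), EIF3E (-0.020), EIF4E2 (0.084), EIF3A (-0.19), EIF5B (0.056), EIF3K (-0.040) and EIF1AX (-0.027). With the mean of probe sets EIF3A was at -0.12, EIF4B at -0.0078 and EIF4G2 at -0.042. With 1 array left out, ranges that crossed 0 included -0.011 to 0.0018 for EIF1, -0.087 to 0.084 for EIF2AK3, -0.033 to 0.012 for EIF2AK4, -0.134 to 0.138 for EIF3C, -0.019 to 0.097 for EIF4A2, -0.011 to 0.163 for EIF4EBP1 and -0.054 to 0.072 for EIF5A. The cause was not tested.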
